A study of Mus musculus with 44 samples.

Results

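The regions described here are the 223 genomic positions at which IRF3 was listed in macrophages lacking Dnmt3a, both with and without lipopolysaccharide (LPS), and in neither wild-type list. They were chosen from 8 deposited ChIP-seq peak lists on chromosomes 1 to 19, X and Y, joined into 5605 regions of peaks that overlap by at least 1 bp. A region was taken when it held a peak of both Dnmt3a knockout (KO) IRF3 lists and none of either wild-type (WT) IRF3 list, whatever the NF-kB lists held. The 223 regions are 3.98% of all regions and 7.24% of the 3082 regions with any IRF3 peak. Presence and absence of IRF3 peaks chose them, so those values are a description and carry no test.

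IRF3 is a transcription factor that is phosphorylated after pattern recognition receptors are engaged and then enters the nucleus, where it acts on interferon genes. NF-kB is the companion factor of the same signalling, held in the cytoplasm by IkB proteins until they are degraded. Dnmt3a places new methyl groups on cytosines of CpG dinucleotides. LPS, a bacterial cell wall component, engages both factors in macrophages through Toll-like receptor signalling.

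All cells were bone marrow-derived macrophages of C57BL/6 mice, grown from whole marrow with 30 ng/ml M-CSF and collected on day 8 to 10. The 4 conditions were Dnmt3a KO with 10 ng/ml LPS for 6 hours, Dnmt3a KO untreated, WT with the same LPS, and WT untreated. The labels state neither how Dnmt3a was deleted nor whether replicates came from separate animals, nor which NF-kB subunit was pulled down. Each list merges its group's samples (IRF3: 3 for KO with LPS, 2 for KO untreated, 2 for WT with LPS and 3 for WT untreated; NF-kB: 3 each), so no value has a spread between replicates and no difference between lists was tested.

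The KO IRF3 lists held 1792 peaks with LPS and 1707 untreated, and the WT IRF3 lists 1424 with LPS and 1169 untreated. In the same order the NF-kB lists held 2376, 3065, 2494 and 1462 peaks. Read depth is unknown. Intervals below are exact 95% binomial (Clopper-Pearson) intervals that cover counting error only. Peak lists measure neither expression nor the deleted gene, so the genotype and the cell type could not be checked from them.

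Sequence is shown for the 1 region that overlaps an annotated promoter window, which is also among the best-ranked. The region on chromosome 4 (118547147 to 118548693, 1547 bp) lay 2227 bp from the protein-coding gene Tmem125 and held a start site of the long non-coding RNA gene Gm40237. A promoter window spans 250 bases before to 50 after a start site, and the sequences are RefSeq's on the plus strand of GRCm38.p6, the assembly also named mm10. Capitals mark the bases inside the IRF3 region.

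Gm40237 first start site, chr4:118546889-118547188: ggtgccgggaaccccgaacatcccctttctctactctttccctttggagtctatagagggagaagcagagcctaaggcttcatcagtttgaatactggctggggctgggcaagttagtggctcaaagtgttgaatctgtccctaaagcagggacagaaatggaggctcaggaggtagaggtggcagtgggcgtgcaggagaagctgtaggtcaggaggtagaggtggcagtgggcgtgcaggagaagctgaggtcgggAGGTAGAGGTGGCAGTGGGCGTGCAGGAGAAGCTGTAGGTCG
Gm40237 second start site, chr4:118547156-118547455: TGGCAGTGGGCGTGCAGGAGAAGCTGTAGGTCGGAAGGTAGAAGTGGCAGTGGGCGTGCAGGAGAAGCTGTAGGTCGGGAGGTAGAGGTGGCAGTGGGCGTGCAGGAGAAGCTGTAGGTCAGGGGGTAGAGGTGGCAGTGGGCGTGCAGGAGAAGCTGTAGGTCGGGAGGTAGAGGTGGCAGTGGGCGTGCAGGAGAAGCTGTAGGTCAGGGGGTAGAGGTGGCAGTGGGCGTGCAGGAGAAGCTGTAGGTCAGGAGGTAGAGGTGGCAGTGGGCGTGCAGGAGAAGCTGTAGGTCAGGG

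The second window lay wholly inside the region and consisted of a short unit repeated head to tail. Of its bases, 96.1% were equal to the base 44 positions further on, and 97.6% to the base 88 positions further on. Among all 32851 promoter windows, 18 (0.0548%) reached 80% at any shift of 10 to 100 bases, and the median best match was 33.8%. The window held 10 CpG dinucleotides and 62.7% G or C, against medians of 7 and 52.7% over all windows. Both strands were searched for GAAANNGAA, a core of sites that IRF factors bind, and for GGGANTTCC, a kB motif. Neither occurred in these windows, while 8.56% of all windows held GAAANNGAA and 1.68% held GGGANTTCC. The labels do not say how reads that match several repeat units were placed, and the part of the repeat in this peak was not tested.

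In the KO lists the 223 regions sat mostly in the middle and lower ranks. Peaks were ranked by the authors' deposited p-value, and a rank is given here as a percentage of the list's length, 0 being best. With LPS the best peak per region ranked from 4.80 to 98.9%, with a median of 53.3%. Untreated, the ranks ran from 0.996 to 99.8% with a median of 58.7%. For comparison, the 448 regions in all 4 IRF3 lists had medians of 16.8% with LPS and 17.5% untreated in the KO lists. The 79 regions listed in WT alone in both treatments had medians of 47.3% with LPS and 51.1% untreated in the WT lists. Few peaks were strong by the authors' q-value, with 4 regions under 0.05 with LPS, 2 untreated and 0 in both. Most peaks of the whole KO IRF3 lists also missed this cutoff, which 143 of 1792 reached with LPS and 114 of 1707 untreated. The median q-value was 0.512 with LPS and 0.727 untreated.

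**Figure D1:**
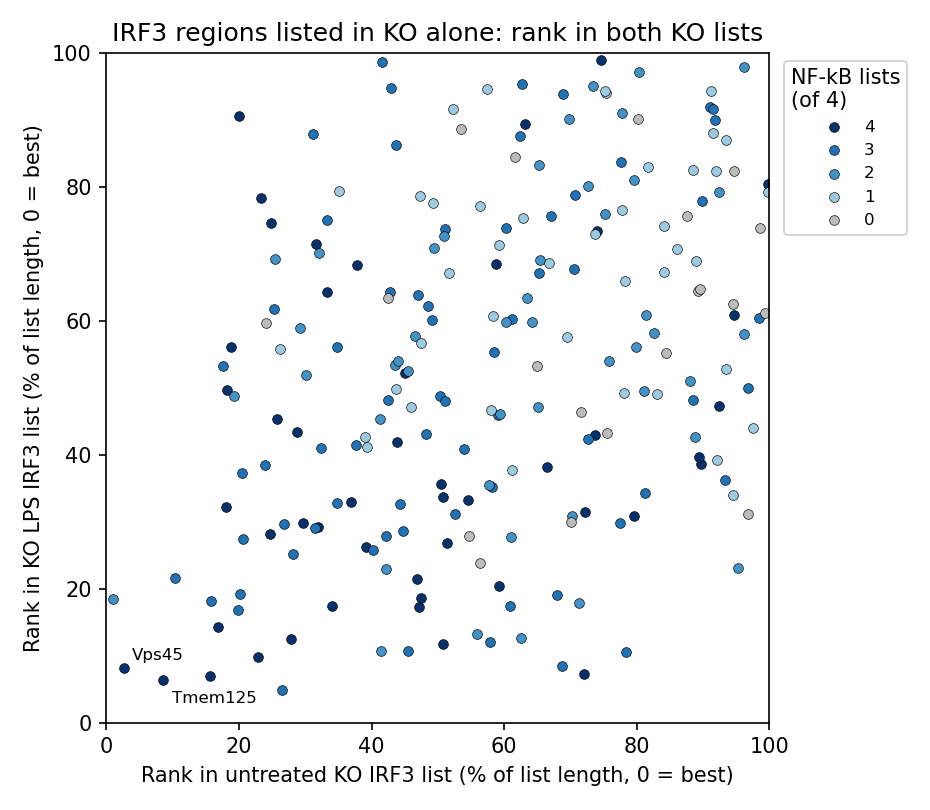
Rank of each of the 223 regions in the KO LPS IRF3 list (y axis) and in the untreated KO IRF3 list (x axis), as a percentage of list length, with the shade giving the number of NF-kB lists with a peak in the region. Points spread over most of the square, and 10 regions lie in the best 25% of both lists.

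Order in the LPS list followed order in the untreated list only loosely. Spearman's rho between both ranks was 0.35 across the 223 regions, which share their cells' genotype and antibody. No such value is given here for other regions with both KO lists, so whether it is particular to the 223 was not tested. The better of both relative ranks came from the LPS list in 124 regions and from the untreated list in 99. Signal value, a score that the authors deposited without a stated scale, was higher with LPS in 118 regions. Its median was 11.02 with LPS and 10.95 untreated. The best 25% of both lists held 10 of the regions, while 82 lay in the lower 50% of both.

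Since the rule puts KO peaks of both treatments in 1 joined region, their overlap is largely fixed and is given as a description. In 221 of the 223 regions a KO LPS peak directly overlapped an untreated KO peak, and in 184 the overlap covered at least 90% of the shorter peak. The centres of the best peaks of both lists lay a median of 124 bp apart (quartiles 59.8 and 249.5 bp). The exceptions were a region on chromosome X 106930 bp from Spin4 and a region on chromosome 4 17346 bp from Vmn2r129. In these, NF-kB peaks joined KO peaks that lay 457 and 227 bp apart.

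By the mean of both relative ranks, the first region was a narrow one inside Vps45, which encodes a Sec1/Munc18 protein of endosomal vesicle fusion. It spanned 437 bp on chromosome 3 (96044552 to 96044988) and ranked 146 of 1792 with LPS (q-value 0.0505) and 45 of 1707 untreated (q-value 0.0114). The region near Tmem125 came second by that mean, at rank 113 with LPS (q-value 0.0334) and 147 untreated (q-value 0.0776). Its signal values were low for its rank, at 4.25 with LPS and 3.5 untreated, where the lowest of all 223 were 3.86 and 3.36. The third, at rank 332 with LPS and 17 untreated, the best untreated rank of any, lay 163387 bp from its nearest gene, Tcte2.

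A region in Afm, the gene of the vitamin E-binding plasma protein afamin, ranked 125 with LPS and 268 untreated (chromosome 5, 90541059 to 90542794). The widest region, 11799 bp, overlapped Ttc34 on chromosome 4 (154841001 to 154852799). Its signal values were the highest of all 223, at 33.7 with LPS and 33.5 untreated. Itgb1, which encodes the integrin beta-1 chain, lay 43203 bp from a region that ranked 86 with LPS and 452 untreated, the best LPS rank of any. Those ranks belong to largely separate peaks, which overlapped by 118 bp. Their centres lay 2375 bp apart, the most of all 223. Ranks thus differed between treatments even among the best-ranked regions.

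Of the remaining best-ranked regions, 3 lay inside genes. Anpep encodes the surface aminopeptidase CD13, found on myeloid cells, and its region ranked 300 with LPS and 338 untreated. Ptprd, a receptor tyrosine phosphatase gene, held a region at rank 344 in both lists. Fgd4, which encodes an exchange factor for the small GTPase Cdc42, held one at rank 576 with LPS and 308 untreated. The transcription factor gene Sox17 lay 62195 bp from a region at rank 325 with LPS and 269 untreated. Pappa, which encodes a protease of IGF-binding proteins, lay 62471 bp from a region at rank 224 with LPS and 475 untreated. Each of these genes is only the closest one, and no effect on it was measured.

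Most of the 223 regions had a similar width. Region width ran from 205 to 11799 bp with a median of 1372 bp, and 158 regions (70.9%, 64.4 to 76.7%) measured 1000 to 2000 bp. This band, chosen after the widths were seen, held 43.0% of the WT-alone regions (31.9 to 54.7%) and 33.6% of all regions. Chromatin had been sheared to fragments of 100 to 300 bp, per the labels' protocols. Only 6 regions were narrower than 500 bp, and 10 were wider than 3000 bp.

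The rule turns on an overlap of 1 bp. Of the 223 regions, 4 had a WT IRF3 peak within 1 kb, the nearest at 433 bp from a region in Plcb1 and the next at 630 bp from one in Zfp992. In 11 regions a WT IRF3 peak lay within 10 kb, and the median distance was 424342 bp. On the other side, 743 regions held both KO lists and at least 1 WT IRF3 list. The overlap between their KO and WT peaks, which the joining largely fixes, was at least 192 bp, with a median of 1598 bp.

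The reverse set was smaller. Regions listed in WT alone in both treatments numbered 79 (1.41% of all regions), which is 12.5% (10.1 to 15.4%) of the 630 regions with both WT IRF3 lists. The 223 regions were 23.1% (20.5 to 25.9%) of the 966 regions with both KO IRF3 lists. The KO lists are longer, and cut to the 1169 best-ranked IRF3 peaks each, the lists gave 123 regions in KO alone and 92 in WT alone. With a q-value under 0.05 required of every peak, they gave 11 in KO alone and 24 in WT alone. None of those 11 could be among the 223, since 0 of the 223 passed this cutoff in both KO lists. In the full lists those 11 thus lay in regions with a WT IRF3 peak.

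NF-kB was found at most of these regions, in both genotypes. The rule set no condition on NF-kB, whose lists come from other ChIP samples. Each genotype and treatment has 1 input sample, named for neither factor. Whether peaks of both factors were called against it is not stated, so lists of a condition may not be independent. NF-kB peaks did take part in the joining, and the regions near Spin4 and Vmn2r129 needed them. Joining the IRF3 lists alone gave 221 regions. Of the 223 regions, 203 (91.0%, 86.5 to 94.4%) held an NF-kB peak of at least 1 list, against 79% of the other 2118 regions with a KO IRF3 peak and 84.3% of all 5605 regions, some of which only NF-kB peaks made. A KO NF-kB list had a peak in 187 (83.9%, 78.4 to 88.4%), against 73.6% of those other regions and 67.7% of all. A WT NF-kB list had one in 155 (69.5%, 63.0 to 75.5%), against 63.5% of those other regions and 50.9% of all. The other regions mix sets that differ widely in this share. A WT NF-kB list had a peak in 98.2% of the 448 regions in all 4 IRF3 lists. It had one in 33.6% of the 572 regions with IRF3 in KO with LPS alone and in 38.7% of the 411 in untreated KO alone, which also lack a WT IRF3 peak. The 223 regions thus lay between these sets.

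By list, NF-kB peaks lay in 137 regions with LPS in KO (61.4%, 54.7 to 67.9%) and in 171 untreated in KO (76.7%, 70.6 to 82.1%). In WT they lay in 144 regions with LPS (64.6%, 57.9 to 70.8%) and in 75 untreated (33.6%, 27.5 to 40.2%). The other regions with a KO IRF3 peak gave 54.5, 64.9, 57.6 and 40.1% in the same order, and all 5605 regions gave 39.4, 52.6, 42.9 and 24.5%. The 4 NF-kB lists differ in length in a like order, with untreated WT shortest and untreated KO longest.

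**Figure D2:**
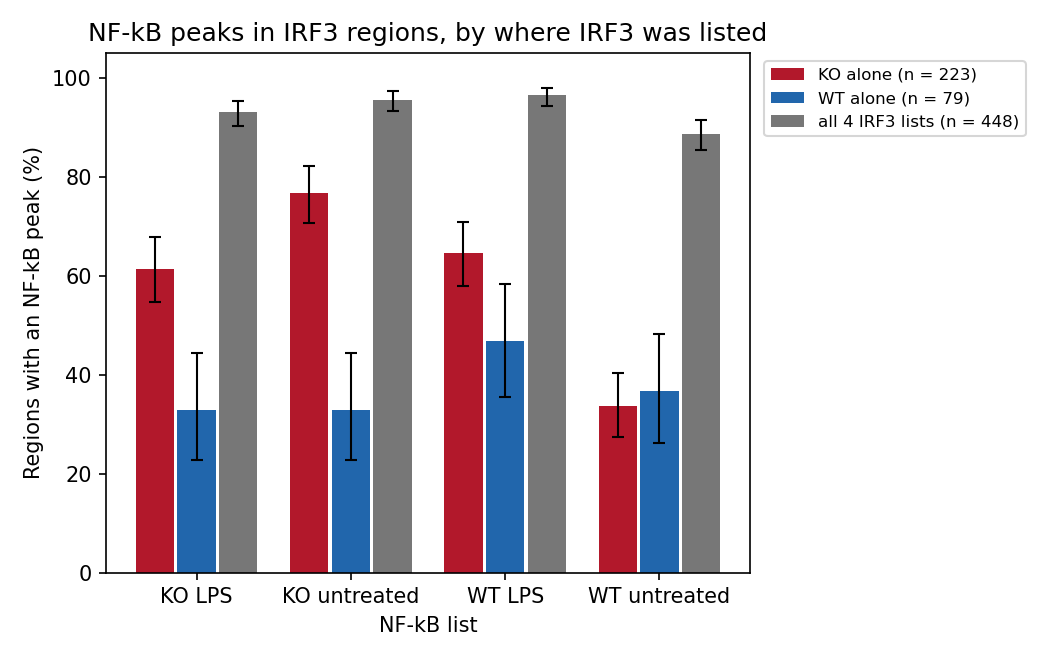
Share of regions with an NF-kB peak in each of the 4 NF-kB lists (x axis), for IRF3 regions in KO alone, in WT alone and in all 4 IRF3 lists, with bars giving percent and error bars the exact 95% binomial interval. The KO-alone regions stand at 61.4% (KO LPS), 76.7% (KO untreated), 64.6% (WT LPS) and 33.6% (WT untreated), below the regions of all 4 lists in each.

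Against the WT-alone regions, the gap was widest in the KO NF-kB lists. A KO NF-kB peak lay in 83.9% of KO-alone and in 50.6% (39.1 to 62.1%) of WT-alone regions. A WT NF-kB peak lay in 69.5% of KO-alone and in 60.8% (49.1 to 71.6%) of WT-alone regions, and these intervals overlap. Seen from the opposite genotype, NF-kB was listed in 69.5% of KO-alone regions (WT lists) and in 50.6% of WT-alone regions (KO lists). Regions listed for IRF3 in 1 KO treatment alone held fewer NF-kB peaks than the 223. Any NF-kB list had a peak in 54.5% (50.4 to 58.7%) of the 572 found in KO with LPS alone and in 67.2% (62.4 to 71.7%) of the 411 found in untreated KO alone. A test of these differences would need replicates, which the merged lists do not give.

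The commonest combinations involved 3 or 4 NF-kB lists. In 49 regions NF-kB was listed in both KO conditions and in WT with LPS, but not in untreated WT. In 48 regions (21.5%, 16.3 to 27.5%) all 4 NF-kB lists had a peak, against 29.1% of the other regions with a KO IRF3 peak and 12.8% of all regions. Untreated KO alone accounted for 25 regions. NF-kB peaks confined to KO in both treatments, the pattern that mirrors IRF3, occurred in 18 regions (8.07%, 4.85 to 12.5%), against 4.2% of the other regions and 4% of all. The best-ranked of these 18 with a gene nearby lay inside Zfp978, Caps2 and Gm6351. In all, 120 regions (53.8%, 47.0 to 60.5%) held peaks of both the WT LPS and the untreated KO NF-kB lists. This compares with 48.5% of the other regions with a KO IRF3 peak and 26.1% of all regions.

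**Figure D3:**
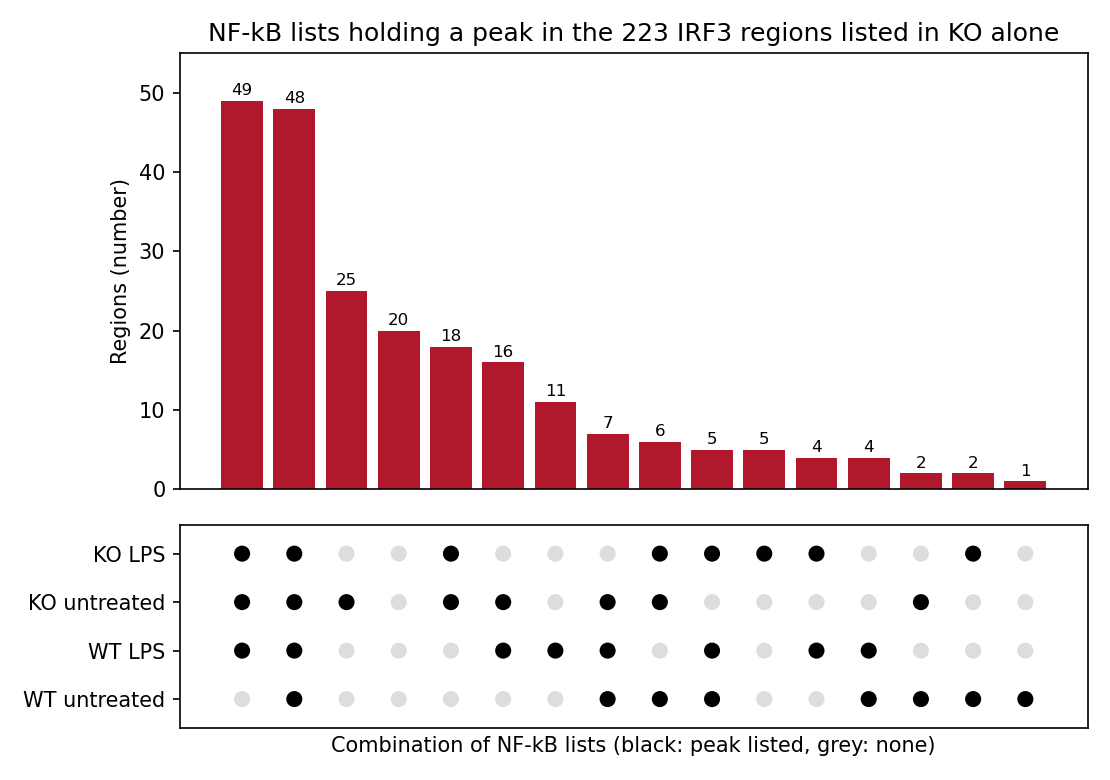
Number of the 223 regions (y axis) for each combination of NF-kB lists with a peak, where black dots below each bar mark the lists that hold one and grey dots those that do not. The highest bars are 49 regions without the untreated WT list and 48 with all 4 lists, and 20 regions have no NF-kB peak.

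Only NF-kB peaks joined into the same region were measured for position, and the nearest centre was taken, so small distances are partly set by the joining. The nearest NF-kB peak centre lay a median of 69.5 bp from the middle of the IRF3 peaks in KO with LPS and 60 bp in untreated KO. In WT the medians were 85 bp with LPS and 139.5 bp untreated. Within 250 bp lay 85.4, 91.2, 89.6 and 78.7% of them in that order. Of all NF-kB peaks in the 223 regions, 17.3, 9.84, 11.8 and 16.0% were narrower than 500 bp in the same order, against 29.4, 25.2, 24.7 and 19.6% of each whole list.

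**Figure D4:**
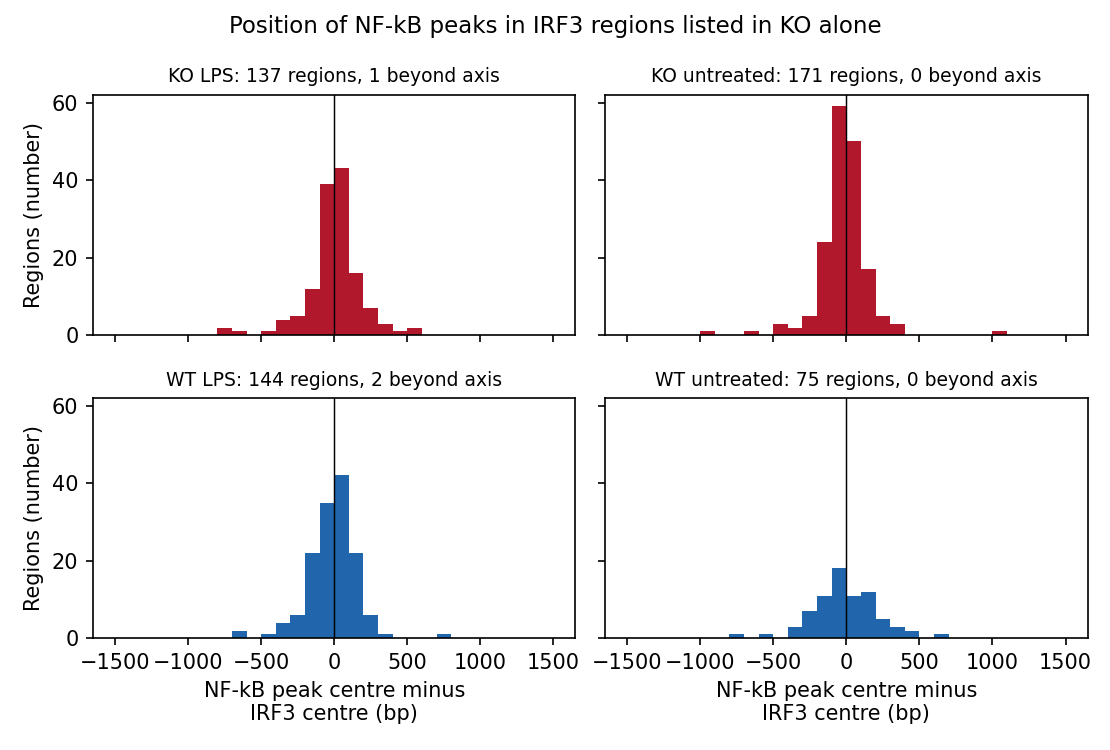
Distance in bp from the middle of the KO IRF3 peaks to the nearest NF-kB peak centre in the same region (x axis) and number of regions (y axis), in 1 panel per NF-kB list. All 4 panels peak beside 0, with medians of 69.5 (KO LPS), 60 (KO untreated), 85 (WT LPS) and 139.5 bp (WT untreated) without regard to sign.

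In 3 of the 4 NF-kB lists the median relative rank of these peaks was better than the IRF3 medians of the 223 regions. The sets are unlike, since each NF-kB median covers only regions with a peak of that list. Regions in more NF-kB lists also ranked better for IRF3, and the lists differ in length, so no conclusion is drawn. The median relative rank of the NF-kB peaks was 40.7% in KO with LPS, 27.5% in untreated KO, 37.2% in WT with LPS and 56.9% in untreated WT. A q-value under 0.05 was reached in 6 of 137, 38 of 171, 9 of 144 and 2 of 75 regions in that order. Over the whole lists it was reached by 227 of 2376, 422 of 3065, 330 of 2494 and 135 of 1462 peaks. The share at the regions was thus above that of the list in untreated KO only. The region near Tmem125 ranked 42 in KO with LPS, 8 in untreated KO, 80 in WT with LPS and 1127 in untreated WT. A 543 bp region on chromosome 14 (124801642 to 124802184), 123956 bp from the gene Fgf14, was singled out after its values were seen. It ranked 7 in KO with LPS, 20 in untreated KO, 62 in WT with LPS and 6 in untreated WT for NF-kB. For IRF3 it ranked 639 with LPS and 861 untreated, with signal values of 3.86 and 3.36, the lowest of the 223 in each list. This position was thus among the best-ranked NF-kB peaks of both untreated and LPS-treated WT cells, while no WT IRF3 list held it.

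Regions that ranked better for IRF3 were in more NF-kB lists. Ordered by the mean of both KO ranks, the best 74 regions held a WT NF-kB peak in 82.4% of cases, the middle 74 in 70.3% and the last 75 in 56%. For the KO LPS NF-kB list the shares were 87.8, 54.1 and 42.7%, and for the untreated KO list 89.2, 79.7 and 61.3%. All 4 NF-kB lists were present in 28, 14 and 6 regions. Median width was 1465.5, 1340 and 1370 bp, widest in the best-ranked part. By number of NF-kB lists, from 0 to 4, it was 1266, 1352, 1268.5, 1361 and 1500 bp. Region width includes the joined NF-kB peaks, and its part in this order was not tested.

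The 20 regions without any NF-kB peak ranked lower, with a median mean rank of 70.4% against 41.0% for the 48 regions in all 4 NF-kB lists. The best-ranked of the 20 was a 717 bp region 5063 bp from Vmn2r72, a vomeronasal receptor gene, at rank 428 with LPS and 962 untreated. Arnt2, a gene of the bHLH-PAS transcription factor family, held the third, at rank 1069 with LPS and 411 untreated. Spata17 held the fifth, only 339 bp wide, at rank 1137 with LPS and 726 untreated. Between these stood regions 1250592 bp from Snx16 and 442440 bp from Flrt2, the protein-coding genes closest to them. Among the regions in all 4 NF-kB lists, Vps45, Tmem125, Afm and Ttc34 led, followed by 1 on chromosome 6 at 265941 bp from Ankrd7.

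The 223 regions were spread over 20 chromosomes, with none on Y. Chromosome 4 held the most, 28 regions, which is 11.2% of its IRF3 regions (7.57 to 15.8%), and chromosome 7 held 18 (10.98%, 6.64 to 16.8%). Chromosome 5 held 11 (4.06%, 2.04 to 7.15%), the lowest share, while 21 of the 79 WT-alone regions lay there. Chromosome X held 21 (7.29%), close to the 7.24% over all chromosomes. Neighbouring regions were rarely close together, and 2 pairs lay within 100 kb of each other. The closer pair, 580 bp apart, lay near Vmn1r2 and Vmn1r3 on chromosome 4.

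**Figure D5:**
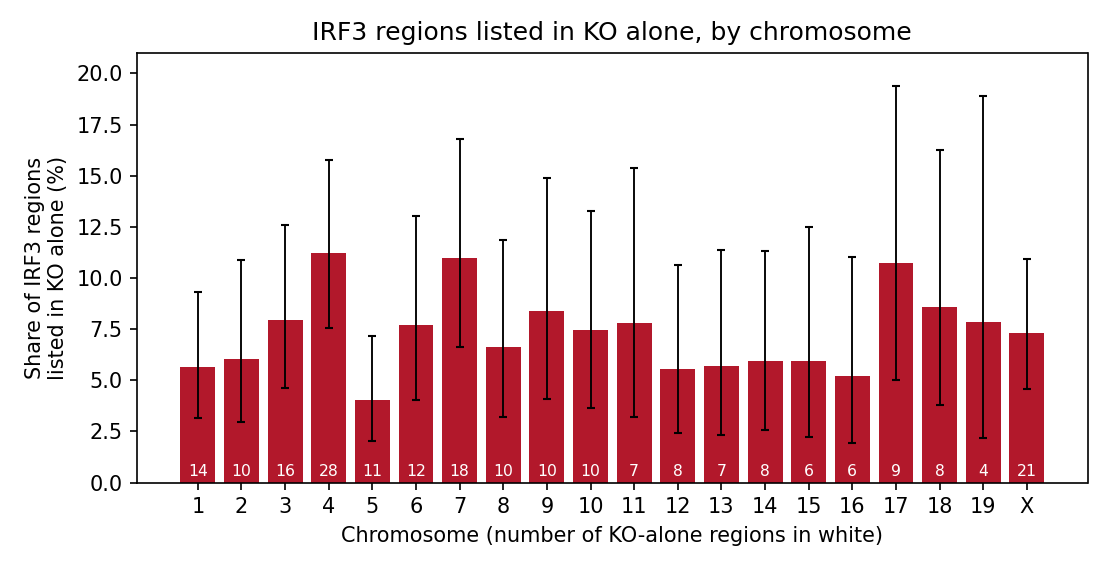
Share of each chromosome's IRF3 regions that were listed in KO alone in both treatments (y axis, percent), with exact 95% binomial intervals as error bars and the number of such regions in white. Chromosome 4 has the highest share (11.2%, 28 regions) and chromosome 5 the lowest (4.06%, 11 regions). These are the extremes of 20 chromosomes, picked after the shares were seen, and no difference between chromosomes was tested.

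Relative to genes, the regions resembled the rest of the series. A protein-coding gene span was overlapped by 74 regions (33.2%, 27.0 to 39.8%), against 29.7% of all regions. Within 10 kb of one, or on it, lay 96 (43.0%, 36.5 to 49.8%), against 39.8%. More than 100 kb from any lay 68 regions (30.5%, 24.5 to 37.0%), against 31.4%. Few lay at gene ends. Within 1 kb of an annotated end lay 2 regions (0.897%, 0.109 to 3.20%), against 2.44% of all regions, which is inside that interval. One of these lay 637 bp from Septin14, a cytoskeletal septin gene, and the other lay inside Zfp978, 727 bp from an end of its neighbour Zfp991. Within 1 kb of a start site in the promoter table lay 4 of the 215 regions outside chromosome 18, (1.86%), against 1.73% of all regions there. The region at Gm40237 was the only one of these 215 to overlap a promoter window, against 0.772% of all 5439 regions there (42 regions).

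The genes that held a region were long. The 74 regions inside genes lay in 73 genes, and their host spans had a median of 184 kb, against 135 kb for hosts of any region and 17.2 kb for all 21887 protein-coding genes. Hosts of regions in all 4 IRF3 lists had a like median of 182 kb. The median was 146 kb for other regions with a KO IRF3 peak and 71.5 kb for 17 WT-alone regions. Only Nell1, which encodes a secreted glycoprotein and spans 888 kb, held more than 1. Longer genes offer more room, so these lengths are given as a description.

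Genes near the regions were set against chosen lists of IRF3, NF-kB and other genes. Within 10 kb of the 223 regions lay 108 protein-coding genes, 0.493% of all. No gene of the 7 pathway and identity lists was among them, so 0 of 37 matched interferon-stimulated genes, 0 of 36 NF-kB targets and 0 of 21 genes of IRF3 signalling and nucleic acid sensing had a region within 10 kb. The same held for 19 genes of the DNA methylation machinery, 24 germline and imprinted genes, 30 macrophage identity genes and 24 immediate early genes. Within 50 kb the counts were also 0. With a background of 0.493% a count of 0 in lists of this size is near the background. Within 10 kb of any of the 5605 regions lay 2 interferon-stimulated genes, 13 NF-kB targets and 2 genes of IRF3 signalling and nucleic acid sensing. For DNA methylation, germline and imprinted, macrophage identity and immediate early genes these counts were 1, 3, 4 and 1. Markers of T cells, B cells, neutrophils, dendritic cells, erythroid and stromal cells, in 6 lists, had no region within 50 kb either.

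Gene families of similar copies were present but not frequent. Of the 155 regions with a protein-coding gene within 100 kb, 7 (4.52%) had a vomeronasal receptor gene of the Vmn1r or Vmn2r families as the nearest, against 4 of 60 (6.67%) among WT-alone regions and 2.44% over all regions. Olfactory receptor genes (Olfr) were nearest to 2, at Olfr384 and Olfr1340 (1.29%), against 0 of 60 WT-alone regions and 2.21% over all. Zinc finger genes named Zfp were nearest to 4 (2.58%), against 6 of 60 (10%) WT-alone regions and 3.90% over all. Predicted genes named Gm with a number were nearest to 6 (3.87%), against 15 of 60 (25%) WT-alone regions and 11.2% over all. No Mup or Rhox gene was nearest to any. Reads can be shared between near-identical copies, so peaks near these families are uncertain.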

How the data were processed

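ChIP-seq of IRF3 and NF-kB was analysed from 8 peak lists. The labels of all replicates of a group name the same list, so each list merges them. Per the submitters' processing notes, the build is mm10 and the tools include MACS2 2.1.1, HOMER 4.9, Picard 2.8.0 and deepTools 3.5.0, with no role stated. Peak-calling settings, merging method and cutoff were not found (not given in the sources used here). Peaks' values, which the authors deposited, are a score and a signal value without a stated scale, a p-value and a q-value, and served only to rank or filter peaks within a list.

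Lists were joined at an overlap of 1 bp with Python 3.11.15 and pandas 2.3.3, and the joining was tested on simulated lists. Ties in p-value were broken by signal, width and position. Gene spans and promoter windows came from RefSeq tables of GRCm38.p6. Promoters on chromosome 18 were not used here. Of 234 symbols in the gene lists, 229 matched. Members, lists and families were chosen with earlier results of these data known.

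Named genes were, by mean rank in both KO IRF3 lists, the nearest genes of the 10 best regions with a gene within 100 kb, of up to 12 regions within 1 kb of a gene end (2 met this), and of 5 regions each in all and in no NF-kB list, plus listed genes within 10 kb. No test was made between lists. Bisulfite, ATAC-seq and input samples were not analysed here.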

Additional observations from a re-analysis of the deposited data

How the results depend on the processing

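Each of 8 results was recomputed under 5 other settings, and the gene count also at 2 other distances. Requiring a q-value under 0.05 of every peak left 11 regions in KO alone and 24 in WT alone, so the order of both turned round. Those 11 regions shared none with the 223, which was fixed, since 0 of the 223 passed this cutoff in both KO lists. The 11 had NF-kB in any list in 100% of cases, in KO lists in 90.9% and in WT lists in 90.9%. Their median width was 2333 bp, with 3 genes within 10 kb. At equal list length per factor, 123 regions remained in KO alone, 103 of them among the 223, with 56 genes within 10 kb. WT-alone regions then numbered 92. Joining the IRF3 lists alone gave a median width of 1297 bp. Within 50 kb lay 226 genes. The other 31 of the 42 values, among them all with joining across gaps of 1 kb or with KO peaks overlapping by 50% of the shorter, kept counts within 1.5 times and shares and widths within the interval of the value reported. No paired analysis was possible because each list merges its group's replicates, and leaving out a replicate could not be done for the same reason. List length differs between groups and read depth is unknown, so absence from a list is not absence of binding.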

Other observations

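Several genes outside the naming rule, chosen after their values were seen, lay at or near regions listed for IRF3 in KO alone. Nod1, which encodes a sensor of bacterial peptidoglycan, lay 4121 bp from a 1654 bp region on chromosome 6 (54976795 to 54978448) that ranked 1080 with LPS and 1044 untreated, with q-values of 0.579 and 0.776. That region held NF-kB peaks of 3 of 4 lists. Abca1, the cholesterol efflux transporter gene, held a region at rank 734 with LPS and 553 untreated (q-values 0.381 and 0.35). NF-kB was listed there in 3 of 4 lists. Arid1b, which encodes a BAF complex subunit, held one at rank 524 with LPS and 544 untreated (q-values 0.256 and 0.344), with NF-kB in all 4 lists. Smchd1, which encodes a protein of the inactive X chromosome, held one at rank 1324 with LPS and 1029 untreated. Its q-values were 0.743 and 0.76, with NF-kB in 3 of 4 lists. Ash2l, which encodes a subunit of histone H3 lysine methyltransferases, held one at rank 1230 with LPS and 1141 untreated. Its q-values were 0.685 and 0.815, with NF-kB in 1 of 4 lists.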
